A study of Mus musculus with 30 samples.

Results

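The cell cycle and mitosis genes described here are 42 genes of DNA replication and cell division. They were taken by gene name from the probes of a mouse whole-genome expression array, which carries 34728 names in all. Of the 42, 38 had a probe well above background on every array of at least 1 group and were tested among 23268 such names. The other members were cyclin E2 (Ccne2) and the centromere protein Cenpf, which were well above background on 0 of 30 arrays, Aurora kinase B (Aurkb), which was so on 1 array, and the checkpoint kinase Ttk, which was so on 3. No value is given for these 4 genes.

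The 30 arrays measured total RNA from the aorta of C57BL/6 mice, either wild type (WT) or without B cells (uMT). Mice of each genotype were sampled without surgery (pre), or 7 or 42 days after an operation in which either 0.5 M CaCl2 (Ca) or physiological saline (sham) was put around the aorta. CaCl2 was given to induce abdominal aortic aneurysm, and each of the 10 groups held 3 arrays. The labels give the tissue of all samples, the pre and sham samples included, as abdominal aortic aneurysm, and give neither age nor sex. The pre and sham groups of the uMT mice carry the deletion too, so CaCl2 is compared within a genotype. Nothing in the labels says that the 3 arrays of a group came from separate animals, so the p-values measure only the spread between these samples, which may be technical. Levels are log2 values of the Cy3 signal divided by the 75th percentile of signal on that array, and each gene is represented by its brightest kept probe. Levels of different genes are therefore not compared with each other.

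Dividing cells copy their DNA in S phase and separate the copies in mitosis, after the gap phase G2. Genes for DNA synthesis are switched on by E2F factors as cells leave G1. Genes for mitosis are switched on later by the MuvB complex together with B-MYB and FOXM1. A rise of these RNAs is therefore commonly read as a sign of cell division. Presence alone is not read so here, as Mki67, Mcm6 and Pcna were well above background on all 30 arrays, the pre arrays included. The resting aortic wall is known for very few dividing cells, and medial smooth muscle cells, adventitial fibroblasts and infiltrating leukocytes can all divide after injury. Of the members, 13 belong to S phase (the cyclin E genes, the Mcm helicase, Pcna and the enzymes of nucleotide supply) and 29 to G2 and mitosis. In bulk tissue a larger number of dividing cells and more RNA of these genes per cell cannot be told apart.

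The stretches before the starts of 3 mitotic genes and 2 helicase genes are shown because members that move together can share promoter motifs, and these genes differ in the results. Promoter sequences of RefSeq (build GRCm38.p6, 250 bases before to 50 after each start) matched 35 of the 42 members. The members Tpx2, Ccna2, Aurkb, Mcm4, Foxm1, Ccne2 and Kif20a were not matched. Each line gives the 160 bases that end at the gene start, 5′ to 3′ on the strand of the gene, with matches in capitals. The motifs searched on both strands were the cell cycle homology region (TTTGAA or TTCGAA), the CCAAT box (CCAAT, or ATTGG on the other strand) and an E2F site (TTTCCCGC, TTTCGCGC, TTTGCCGC or TTTGGCGC), whose matches on opposite strands can overlap. The stretches lie at chr10:69352913-69353072 (minus strand, Cdk1), chr11:99024190-99024349 (minus strand, Top2a), chr4:118437344-118437503 (minus strand, Cdc20), chr8:75109349-75109508 (plus strand, Mcm5) and chr1:128359706-128359865 (minus strand, Mcm6).
Cdk1: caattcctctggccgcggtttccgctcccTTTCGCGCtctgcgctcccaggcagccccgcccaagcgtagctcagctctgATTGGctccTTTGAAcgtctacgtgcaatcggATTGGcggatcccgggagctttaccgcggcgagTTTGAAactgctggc
Top2a: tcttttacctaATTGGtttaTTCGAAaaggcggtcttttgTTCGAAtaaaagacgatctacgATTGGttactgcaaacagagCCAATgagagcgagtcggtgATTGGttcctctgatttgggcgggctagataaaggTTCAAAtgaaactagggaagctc
Cdc20: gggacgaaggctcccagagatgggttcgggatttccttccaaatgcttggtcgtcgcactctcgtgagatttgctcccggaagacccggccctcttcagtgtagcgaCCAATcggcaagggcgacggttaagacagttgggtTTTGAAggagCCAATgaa
Mcm5: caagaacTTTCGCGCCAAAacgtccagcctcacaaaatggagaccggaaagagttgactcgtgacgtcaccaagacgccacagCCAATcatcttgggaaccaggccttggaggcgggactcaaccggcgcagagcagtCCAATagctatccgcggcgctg
Mcm6: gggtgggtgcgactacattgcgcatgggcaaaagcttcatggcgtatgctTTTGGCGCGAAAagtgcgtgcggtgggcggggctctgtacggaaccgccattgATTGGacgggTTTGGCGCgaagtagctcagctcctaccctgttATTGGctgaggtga

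Over the whole 300-base windows, 19 of 24 matched G2 and mitosis members (79.2%) held a cell cycle homology region, against 2 of 11 S phase members (18.2%) and 19.2% of all 32851 RefSeq promoters. A CCAAT box was present in 20 of 24 (83.3%) and in 8 of 11 (72.7%), against 37.4% of all promoters. Both motifs were present in 18 of 24 G2 and mitosis members (75%), against 7.52% of all promoters. An E2F site was present in 4 of 11 S phase members (36.4%) and in 1 of 24 G2 and mitosis members (4.17%), which was Cdk1, against 2.26% of all promoters. A member counted if any of its promoters held the motif, while the share of all promoters counts each promoter singly. For Mcm7, 1 of 2 promoters held the cell cycle homology region and E2F matches. A match is a run of letters in this window and no evidence that a factor binds there.

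Across the 30 arrays, the share of probes well above background ran from 36.6 to 61.8%, and no spot was saturated. The lowest share was on WT sham day 42 replicate 2, the next lowest array being at 42.4%. That array was the only one on its slide and the only one of the second scan day, and only 8 of the 42 members were well above background on it. Counts of called members, and the other results that turn on it, are given with and without it. Smooth muscle markers were well above background in every group, 6 of 6 in each. Slides held groups unevenly: the WT pre and sham day 7 arrays shared a slide, as did the WT CaCl2 day 7 and day 42 arrays and the uMT CaCl2 day 7 and day 42 arrays. WT CaCl2 and sham arrays of day 7 shared none, nor did any uMT CaCl2 and sham arrays, so in those comparisons slide and treatment cannot be told apart.

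Sham surgery was followed at day 7 by a rise of the mitotic genes in both genotypes. In WT mice 22 of 38 members were higher than before surgery, at an adjusted p under 0.05 in limma, and 0 were lower. Over all names tested, 2.29% were called higher and 0.0731% lower in that comparison. The median difference of the 38 members was 1.93 on the log2 scale, against -0.02 over all names. In uMT mice 22 members were also higher and 0 lower, with 1.49% of all names called higher and 1.05% lower, and the members' median difference was 2.04 against -0.07 over all names. The groups did not overlap for 35 members in WT and for 29 in uMT, against 16.4% and 15.3% of all names. In the other direction 0 members in WT were separated, against 14.6% of all names, and 1 in uMT, against 17.6%. On the probe used, Bub1, Bub1b, Kif11 and Kif2c were well above background throughout a group only in day 7 groups of operated mice. Cdk1, Top2a and Kif23 were so only in those and in CaCl2 day 42 groups. The filter thus let these probes in only through groups where they were high, so their part in these counts is no separate support for the rise. Without WT sham day 42 replicate 2, which enters this comparison only through the shared estimate of spread, 26 members were called in WT and 28 in uMT, against 3.78% and 5.44% of all names.

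The median member level per array, taken relative to the WT pre mean, shows the same in single arrays. It was between -0.06 and 0.10 on the WT pre arrays and between 1.76 and 1.89 on the WT sham day 7 arrays. It was between -0.33 and 0.28 on the uMT pre arrays and between 1.49 and 2.23 on the uMT sham day 7 arrays. Within the slide that held both WT groups, 37 of 38 members were higher at sham day 7. Within the slide that held all 3 uMT sham day 7 arrays and 2 of the pre arrays, 36 were, with a median of 1.99.

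**Figure D1:**
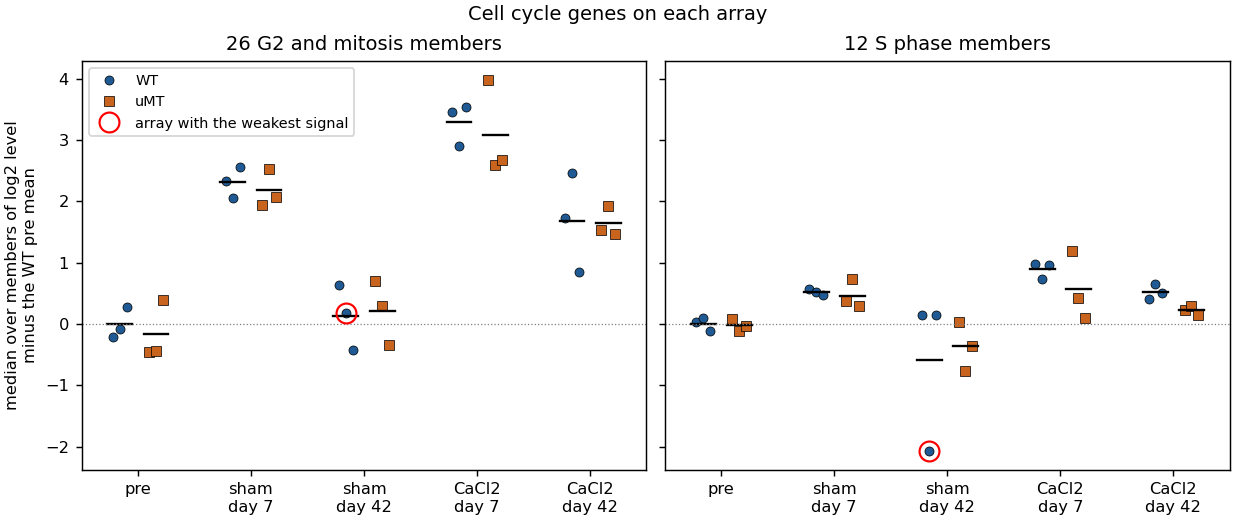
Median log2 level of the measured members on each of the 30 arrays, relative to the WT pre mean, with the 26 G2 and mitosis members and the 12 S phase members plotted separately by genotype, treatment and day. Over all 38 members, the WT sham day 7 arrays sit between 1.76 and 1.89 and the WT CaCl2 day 7 arrays between 2.37 and 2.91, while the WT sham day 42 arrays sit between -0.76 and 0.47.

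Most of the calls were G2 and mitosis genes. Of 26 measured members of that class, 21 were called higher in WT and 21 in uMT, with median differences of 2.37 and 2.31. Of 12 measured S phase members, 1 was called in each genotype, Tk1 both times, and the medians were 0.56 and 0.34. Without the dim array the S phase calls were 3 in WT and 4 in uMT, and the G2 and mitosis calls 23 and 24. The difference between the classes was not itself tested.

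Cdk1, the kinase that drives entry into mitosis, was at -5.35, -4.82 and -4.24 on the WT pre arrays and at -1.38, -1.47 and -0.65 on the WT sham day 7 arrays. The groups were far apart, and no pre array was well above background, so the rise was at least 9.12-fold (difference 3.63 ± 0.41 SE, limma adjusted p = 1.80e-05). In uMT mice Cdk1 rose by 2.42 ± 0.41 (adjusted p = 0.00437 in limma), from -3.63, -3.48 and -3.21 to -1.24, -0.54 and -1.28. The 3 kept Cdk1 probes did not move together: the brightest, well above background on 21 arrays, gave these values, while the others, so on 12 and 7 arrays, differed by 0.56 and 1.65 in WT and by -0.82 and -0.36 in uMT. With the mean of the 3 probes in place of the brightest, the uMT difference was 0.41 and was not called, while the WT difference was 1.95 and was still called. Of 12 members with several kept probes, 7 had probes of opposite sign in at least 1 of 4 differences examined (Cdk1, Ccnb1, Ccne1, Cdca8, Mad2l1, Kif2c and Tpx2).

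Top2a, the topoisomerase that untangles sister DNA before they part, rose by 3.64 ± 0.68 in WT (limma adjusted p = 0.00329) and by 3.33 ± 0.68 in uMT (adjusted p = 0.0112). Its WT levels were -6.31, -4.51 and -3.64 before surgery, where 1 of 3 arrays was well above background, and -1.20, -1.38 and -0.96 at sham day 7. Its uMT levels were -5.40, -4.75 and -3.97, again with 1 of 3 well above background, and then -1.65, -0.98 and -1.50. In neither genotype did the groups overlap.

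Mki67, the nuclear protein scored as Ki-67 to count dividing cells, was well above background on all 30 arrays and so has no floor. It was at -1.14, -1.39 and -0.14 on the WT pre arrays and at 1.49, 1.34 and 1.82 at sham day 7, a rise of 2.44 ± 0.56, or 5.42-fold (adjusted p = 0.0150 in limma). In uMT mice it went from -1.93, -2.19 and -0.52 to 1.26, 1.75 and 1.38, a rise of 3.01 ± 0.56 or 8.07-fold (adjusted p = 0.00659). Every sham day 7 array was above every pre array of its genotype.

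Among cyclins, which activate the cell cycle kinases, the mitotic ones rose. Ccnb2 rose by 2.39 ± 0.60 in WT (adjusted p = 0.0292 in limma) and by 3.20 ± 0.60 in uMT (adjusted p = 0.00684). Its WT levels went from -2.66, -2.14 and -1.52 to 0.28, 0.08 and 0.50. Ccna2, which acts from S phase into mitosis, had the largest difference in uMT, 3.81 ± 0.56 (adjusted p = 0.00115), from -3.67, -4.93 and -2.73 to -0.41, 0.57 and -0.05. Ccne1, the cyclin of the entry into S phase, differed by 0.70 in WT and 1.24 in uMT and was called in neither (adjusted p = 0.762 and 0.117).

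Proteins of the spindle and of the chromosomes followed the mitotic cyclins. All 4 kinesins, motors that move chromosomes and build the midzone, were called in WT and 3 in uMT. Of these, the probes used for Kif11, Kif23 and Kif2c passed the filter only through groups of operated mice. Kif20a, which acts in cytokinesis, rose by 2.81 ± 0.56 in WT (adjusted p = 0.00537 in limma), from -3.71, -3.82 and -3.58 to -0.98, -1.18 and -0.51. Kif2c, which takes microtubules apart at kinetochores, had no pre array above background in WT, and rose at least 2.03-fold there (adjusted p = 0.0358), while in uMT it differed by 0.60 and was not called. All 3 spindle and midzone members (Nusap1, Prc1, Tpx2) and both chromosomal passenger members (Birc5, Cdca8) were called in each genotype. Birc5, or survivin, rose by 2.77 in WT and 2.57 in uMT. Cdca3, which promotes mitotic entry, rose by 2.81 in WT and 3.31 in uMT.

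Some mitotic genes did not pass in both genotypes. Plk1, a kinase of centrosome maturation and chromosome separation, rose by 2.99 ± 0.58 in uMT (adjusted p = 0.00809 in limma) but in WT differed by 1.88 ± 0.58 at an adjusted p of 0.106, although its WT groups did not overlap. Cdc20, which activates the anaphase-promoting complex, differed by 1.39 and 1.37 and was called in neither (adjusted p = 0.118 and 0.0940). Foxm1, the transcription factor of mitotic genes, differed by 1.03 and 1.06 and was not called (adjusted p = 0.661 and 0.347). Cdc20 and Foxm1 were both called in each genotype once the dim array was left out, and Ccne1 in uMT.

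In S phase the single call was Tk1, the thymidine kinase of the salvage pathway. It rose by 2.27 ± 0.52 in WT (adjusted p = 0.0152 in limma), from -1.93, -2.59 and -1.41 to 0.47, 0.21 and 0.22. In uMT it rose by 2.45 ± 0.52 (adjusted p = 0.0145). Rrm2, the regulated subunit of ribonucleotide reductase, was at -0.51, -0.38 and -0.32 before surgery and at 0.85, 0.72 and 0.96 after it in WT, without overlap, yet its adjusted p was 0.0688.

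None of the 6 subunits of the replicative helicase was called in either genotype, and 1 (Mcm7) was called in both without the dim array. Mcm5 went from -0.41, -0.21 and -0.65 to 0.64, 0.78 and 0.31 in WT, a difference of 1.0 ± 0.53 (limma adjusted p = 0.657). Mcm6, well above background on all 30 arrays, was at 4.51, 4.38 and 4.46 and then at 4.57, 4.26 and 4.41, a difference of -0.04 ± 0.24. Pcna, the sliding clamp of the DNA polymerases, differed by 0.73 in WT and 0.14 in uMT and was not called. Mcm6 thus overlapped between pre and sham day 7, while Mcm5 did not.

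**Figure D2:**
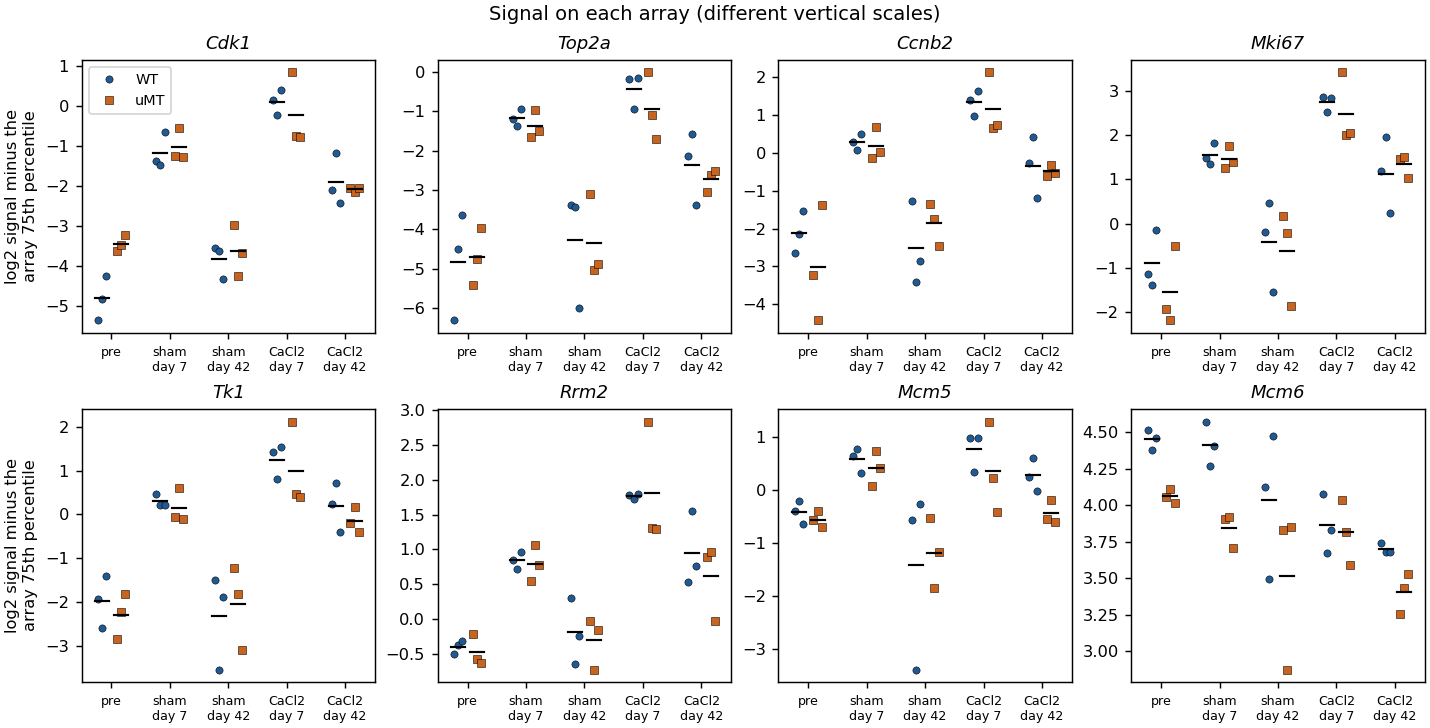
Log2 level on every array, relative to the array's 75th percentile, of Cdk1, Top2a, Ccnb2, Mki67, Tk1, Rrm2, Mcm5 and Mcm6, by group, with points for the 3 arrays of a group. The WT Cdk1 points rise from between -5.35 and -4.24 before surgery to between -1.47 and -0.65 at sham day 7, while the WT Mcm6 points stay between 3.5 and 4.57 in the pre and sham groups.

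No member passed the test between CaCl2 and sham at day 7, although most were higher under CaCl2. In WT mice 0 of 38 members were called between CaCl2 and sham at day 7, and 2.98% of all names were called higher and 3.61% lower. The unadjusted p in limma was under 0.05 for 7 members higher and 1 lower. The share of all names at that unadjusted threshold is not given, here or below. Counts at an unadjusted p therefore cannot be read as particular to the members. The median difference was 0.76, against 0.09 over all names, and 36 of 38 members were higher. With slide in the fit, which links these groups only through other groups, the WT median was 1.36 as a random block and 1.47 as a fixed term, with 0 called, and 0.69 as a random block without the dim array. In uMT mice 0 were called (0.503% of all names higher and 0.391% lower), with an unadjusted p under 0.05 for 8 members, a median difference of 0.75 against -0.02, and 32 of 38 higher. Without WT sham day 42 replicate 2, 3 members were called in WT (Cdk1, Foxm1 and Bub1), against 9.31% of all names, and 0 in uMT, against 4.89%. A fit of only the 2 WT groups, which takes the spread from these 6 arrays alone, called 23 members higher and 1 lower. The share of all names called in that fit is not given here, so these counts cannot be read as particular to the members.

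The WT day 7 arrays were nevertheless well separated for most members. For 30 of 38 every CaCl2 array was above every sham array, and for 1 it was the reverse, against 30.3% of all names with CaCl2 higher and 21.6% with it lower. In uMT 8 members were separated with CaCl2 higher and 0 with it lower, against 16.4% and 18.5% of all names. Cdk1 was at 0.15, -0.22 and 0.40 on the WT CaCl2 arrays, all above the sham arrays at -1.38, -1.47 and -0.65, and had the lowest adjusted p of the members (difference 1.28 ± 0.41, limma adjusted p = 0.0648). Bub1, a kinase of the spindle checkpoint, had the largest difference, 1.45 (adjusted p = 0.0909), with -1.79, -2.0 and -1.72 against -3.40, -3.68 and -2.77. Birc5 differed by 1.29 (adjusted p = 0.16) and Mki67 by 1.2 (adjusted p = 0.227). Mcm6 was the member separated the other way, at 4.08, 3.67 and 3.83 against 4.57, 4.26 and 4.41, a difference of -0.55 (adjusted p = 0.191).

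In uMT mice the day 7 difference leaned on 1 array. The median member level was 3.36 on uMT CaCl2 day 7 replicate 1, relative to the WT pre mean, and the lowest of the group was 1.92. Cdk1 was at 0.85 on that array and at -0.74 and -0.78 on the other arrays, against -1.24, -0.54 and -1.28 at sham, so the groups overlapped. Without that array the median difference of the 38 members fell from 0.75 to 0.26. Kif2c differed by 1.32, but was well above background on 1 of 3 arrays in each group. Among the members measured on all 6 arrays the largest differences were those of Ccnb1, the main cyclin partner of Cdk1 (1.29, limma adjusted p = 0.307), and Birc5 (1.25, adjusted p = 0.256), and Rrm2 had the lowest adjusted p (1.02, adjusted p = 0.159).

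Set side by side, the sham day 7 rise and the added CaCl2 difference were 3.64 and 0.75 for Top2a in WT, 2.44 and 1.2 for Mki67, 2.39 and 1.05 for Ccnb2, and 1.24 and 0.92 for Rrm2. In uMT they were 3.33 and 0.44 for Top2a, 3.01 and 1.02 for Mki67, 3.20 and 0.98 for Ccnb2, and 1.27 and 1.02 for Rrm2. Both differences use the sham day 7 arrays, with opposite sign, so no relation between them was computed. By class, the median CaCl2 difference at day 7 was 0.88 for G2 and mitosis and 0.28 for S phase in WT, and 0.92 and 0.20 in uMT. Relative to pre, the medians reached 2.61 at CaCl2 day 7 in WT and 2.66 in uMT, and CaCl2 day 7 was the highest of the 5 groups for 35 members in WT and 32 in uMT.

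**Figure D3:**
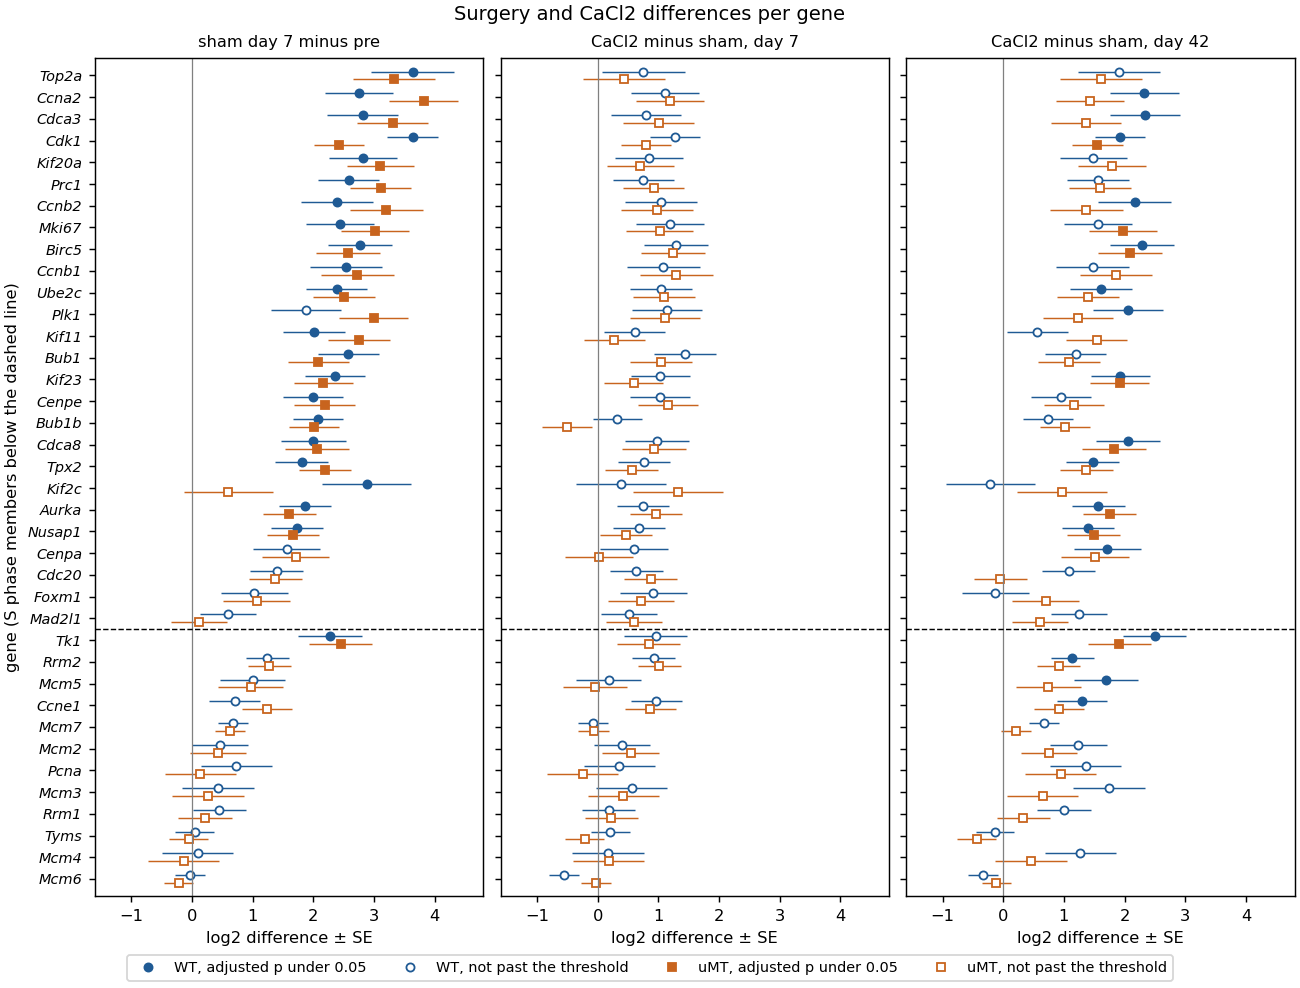
Log2 difference with its SE for each of the 38 measured members, in WT and uMT, for sham day 7 against pre, CaCl2 against sham at day 7 and CaCl2 against sham at day 42. The sham day 7 differences run up to 3.64 in WT (Top2a) and 3.81 in uMT (Ccna2), while the day 7 CaCl2 differences reach 1.45 in WT (Bub1) and 1.32 in uMT (Kif2c, well above background on 1 of 3 arrays in each of these groups).

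Other cells and markers moved in some of the same groups, and their part in these results was not tested. Between pre and sham day 7, 0 of 6 smooth muscle markers and 0 of 5 fibroblast markers were called in either genotype. Of 6 macrophage markers 1 was called higher in WT, Cd68, which rose by 4.08 ± 0.75 (limma adjusted p = 0.00287), and 0 in uMT. Leaving out the dim array, 4 were called in WT and 1 in uMT, along with 1 fibroblast marker in each. The median macrophage marker difference was 1.47 in WT and 0.48 in uMT. Their summed signal, in multiples of the 75th percentile of the array and led by the brightest probes, was 162 to 230 before and 196 to 231 after in WT, and 156 to 467 and 165 to 211 in uMT. At day 7 under CaCl2, 5 of 6 smooth muscle markers were lower than sham in WT, where their summed signal was 451 to 933 against 1980 to 2500. In uMT 0 of 6 were called, and the range was 392 to 2790 against 1910 to 1970. No macrophage, neutrophil, fibroblast or T cell marker was called by limma between CaCl2 and sham at day 7 in either genotype. With the dim array left out, 1 macrophage, 3 neutrophil and 1 T cell marker were higher in WT, and 1 neutrophil marker was higher and 1 lower in uMT. Of 6 plasma cell markers 2 were higher in WT at that time, and of 4 measured lymph node stroma markers 1 was (Glycam1, at least 7.57-fold, limma adjusted p = 0.00178).

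By day 42 the sham arrays lay well below their day 7 level. Their difference from pre was not tested, and members went both ways. The median over the 38 members was -0.12 in WT, where 16 were above pre and 22 below, and it was 0.11, with 26 above, without the dim array. In uMT it was 0.19, with 22 above and 16 below, from -1.05 for Pcna to 1.75 for Ccna2. Between sham day 7 and sham day 42, 13 members fell in WT, with 0.236% of all names called lower and 0.0559% higher, and 21 fell in uMT, with 6.21% of all names called lower and 5.52% higher. No member was called higher in either. The median differences were -1.90 and -1.79, against -0.03 over all names in each genotype. All 38 members were lower in uMT and 36 in WT, and the groups did not overlap for 33 in uMT and 30 in WT, against 27.3% and 9.79% of all names. The WT count depended on the dim array: without it 2 members were called lower, Cdk1 and Kif23, a kinesin of the midzone, and 0.202% of all names. In uMT, 30 were called without it, against 21.7% of all names. The probes of Cdk1 and Kif23, like those of Top2a, Bub1, Bub1b, Kif11 and Kif2c, passed the filter only through groups where they were high. Their calls here, in either genotype, are thus no separate support for the fall. The uMT sham day 42 group was itself weak in signal, with 47.8% and 45.8% of probes well above background on replicates 2 and 3. Without the 6 arrays under 50%, which leaves only replicate 1 in that group, the uMT median was -1.16. Markers of other cells moved in the same comparison, and their part in it was not tested. In uMT the fibroblast markers Lum and Pdgfra fell by 2.91 and 1.71, with 2 of 5 called lower, and 5 of 5 without the dim array. Of 6 macrophage markers, 2 were lower and 1 higher (Itgam, by 2.29), of 6 neutrophil markers 2 were lower, and of 4 osteoclast markers 1 was higher (Calcr, at least 6.21-fold). In WT 1 of 5 fibroblast markers was called, Col1a1, which fell by 1.62, a call lost without the dim array.

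Ccna2 had the largest WT fall, 3.18 on the log2 scale, and its difference was -2.92, and not called, without the dim array. Its levels were 0.10, -0.21 and 0.28 at sham day 7 and -2.48, -3.65 and -3.25 at sham day 42, the second of these on the dim array. Cdk1 fell by 2.66 in WT (limma adjusted p = 0.00388), to -3.55, -3.62 and -4.32, and by 2.60 in uMT (adjusted p = 0.00108), to -2.96, -4.23 and -3.68. It passed in WT with and without the dim array, under the limit of the filter given above. In uMT, Top2a fell by 2.96 (adjusted p = 0.00970), Kif20a by 2.89 (adjusted p = 0.00456), Cenpa, the histone variant that marks centromeres, by 2.65 (adjusted p = 0.00637), and Kif23 at least 2.20-fold (adjusted p = 0.00328), with no sham day 42 array well above background.

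At day 42 mitotic genes were higher in CaCl2 than in sham mice. In WT, 17 of 38 members were higher under CaCl2 than under sham at day 42, 0 were lower, and 6.79% of all names were called higher and 3.59% lower. The median difference was 1.48, against 0.05 over all names, and the groups did not overlap for 20 members, against 11.2% of all names, with 0 members and 8.57% of names the other way. Without the dim array, 13 members were called (7.14% of all names) with a median of 1.16, and 7 members were called both ways: the rest of the calls differ. In uMT, 8 members were higher and 0 lower (4.62% and 1.71% of all names), with a median of 1.29 against -0.04, and 27 did not overlap, against 13.8% of all names. Without the dim array 14 were called in uMT, against 8.87% of all names. Both uMT groups also held arrays with under 50% of probes well above background. Without the 6 such arrays of the series, which leaves only sham replicate 1 and CaCl2 replicate 3 here, the uMT median was 0.59.

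Tk1 had the largest WT difference, 2.50 ± 0.52 (limma adjusted p = 0.00364). It was at 0.23, 0.71 and -0.39 under CaCl2 and at -1.50, -3.55 and -1.90 under sham, and the difference was 1.88 and still called without the dim array. Birc5 was at 1.17, 1.93 and 0.43 against -0.07, -1.28 and -1.98, a difference of 2.29 ± 0.53 (adjusted p = 0.00755), or 2.20 without the dim array. Cdk1 was at -2.09, -1.18 and -2.43 against -3.55, -3.62 and -4.32, a difference of 1.93 ± 0.41 (adjusted p = 0.00460). These 3 genes did not overlap between the groups on their brightest probes. The Cdk1 probe passed the filter only through day 7 groups of operated mice and CaCl2 day 42 groups. Other kept probes differed by 0.43 and -0.31 for Cdk1, by 0.80 for Tk1, and by 1.61 and 1.78 for Birc5. Cdca3 rose by 2.33 and Ccna2 by 2.33, and both were also called without the dim array.

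Several calls and misses in WT turned on the dim array. Mki67 was at 1.19, 1.96 and 0.24 under CaCl2 and at -0.20, 0.47 and -1.56 under sham, and its difference of 1.56 was not called (limma adjusted p = 0.0734), while without the second sham value it was 2.01 and called. Mcm5 was called at 1.69 ± 0.53 (adjusted p = 0.0436), but its sham values were -0.58, -3.39 and -0.28 and it was not called without the dim array. Pcna was at 3.84, 0.06 and 3.61 under sham. Foxm1 was at -3.5, 0.01 and -3.26 under sham and at -2.45, -1.77 and -2.91 under CaCl2, so its difference of -0.13 (adjusted p = 0.896) turned to 1.0 without that array. By class, S phase calls in WT were 4 of 12 with the dim array and 1 without it, and G2 and mitosis calls 13 of 26 and 12.

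In uMT mice the day 42 calls were led by Birc5, Mki67, Kif23 and Tk1. Birc5 was at 0.89, 1.39 and 0.93 under CaCl2 and -0.06, -1.22 and -1.79 under sham, a difference of 2.09 ± 0.53 (limma adjusted p = 0.0180). Mki67 was at 1.46, 1.51 and 1.04 against 0.17, -0.21 and -1.86, a difference of 1.97 ± 0.56 (adjusted p = 0.0338). Kif23 was well above background on 0 of 3 sham arrays and on 2 of 3 CaCl2 arrays, and the rise was at least 1.35-fold (adjusted p = 0.0184). Tk1 rose by 1.91 ± 0.52 (adjusted p = 0.0272). The median difference was 1.46 for the 26 G2 and mitosis members, of which 7 were called, and 0.70 for the 12 S phase members, of which 1 was called. In WT these medians were 1.56 and 1.26, the latter 0.35 without the dim array.

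Immune and smooth muscle markers also differed at day 42, and their part in the members' differences was not tested. In WT, 5 of 6 macrophage markers were higher and 5 of 6 smooth muscle markers lower under CaCl2, or 3 and 4 without the dim array, with summed smooth muscle signal of 786 to 1370 against 2930 to 6540, or to 3190 without that array. In uMT, 2 of 6 and 1 of 6 were called, or 5 and 4 without the dim array, with a smooth muscle range of 772 to 1810 against 2630 to 5080. Markers of plasma cells, the antibody-secreting descendants of B cells, had a summed signal of 27.8 to 123 under CaCl2 and 2.86 to 5.61 under sham in WT. In uMT mice, where the B cell marker Ms4a1 was not well above background on any uMT array, the plasma cell range was 5.35 to 6.59 against 2.76 to 4.27. The plasma cell markers Jchain and Tnfrsf17 were not well above background in either of these uMT groups. Jchain rose by 9.19 in WT (limma adjusted p = 1.15e-05). Its CaCl2 difference in uMT minus that in WT was -9.12 (adjusted p = 0.00796). Of 5 fibroblast markers, 2 were higher in WT and 4 in uMT, and of 6 neutrophil markers, 2 and 3. Among the neutrophil calls in uMT was Mpo, which was well above background on 0 of 3 CaCl2 and 0 of 3 sham arrays. Of 4 measured T cell markers 2 were higher in each genotype, Cd3d by 2.58 and Cd3g by 2.31 in WT, where both calls were lost without the dim array, and by 3.34 and 2.70 in uMT. The endothelial marker Pecam1 fell by 1.92 in WT, a call also lost without that array, and by 1.70 in uMT, where Vwf fell by 1.63. In WT 2 of 4 measured lymph node stroma markers were higher (Ccl19, by 1.85, and Glycam1, at least 1.88-fold), and 2 of 4 osteoclast markers (Ctsk and Acp5, both lost without the dim array). In uMT none of either list was called by limma with all arrays, and 2 of each were without the dim array.

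Within the CaCl2 mice the members declined from day 7 to day 42. The median difference was -1.30 in WT, where 37 of 38 members were lower, and -1.18 in uMT, also with 37 lower, against 0.00 and -0.05 over all names. Groups did not overlap for 30 members in WT, against 11.5% of all names, and for 26 in uMT, against 15.6%. Yet 1 member in each genotype passed the adjusted threshold in limma, with 0.0946% of all names called lower in WT and 0.425% in uMT. No member was called higher, against 0.456% and 0.546% of all names. The unadjusted p was under 0.05 for 25 members in WT and 24 in uMT, all lower. The share of all names at that threshold is not given. In each genotype both groups lay on 1 slide. Without the dim array, 1 member was called in WT and 10 in uMT, where 4.41% of all names were.

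The member called in both was Cdk1. In WT it fell by 2.01 ± 0.41 (limma adjusted p = 0.0178), from 0.15, -0.22 and 0.40 at day 7 to -2.09, -1.18 and -2.43 at day 42. In uMT it fell by 1.85 ± 0.41 (adjusted p = 0.0273), from 0.85, -0.74 and -0.78 to -2.03, -2.15 and -2.03. With the mean of its 3 probes it was not called in either. Mki67 differed by -1.61 in WT and -1.15 in uMT, and Top2a by -1.93 and -1.79, none of them called. The class medians were -1.55 for G2 and mitosis and -0.39 for S phase in WT, and -1.39 and -0.44 in uMT.

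**Figure D4:**
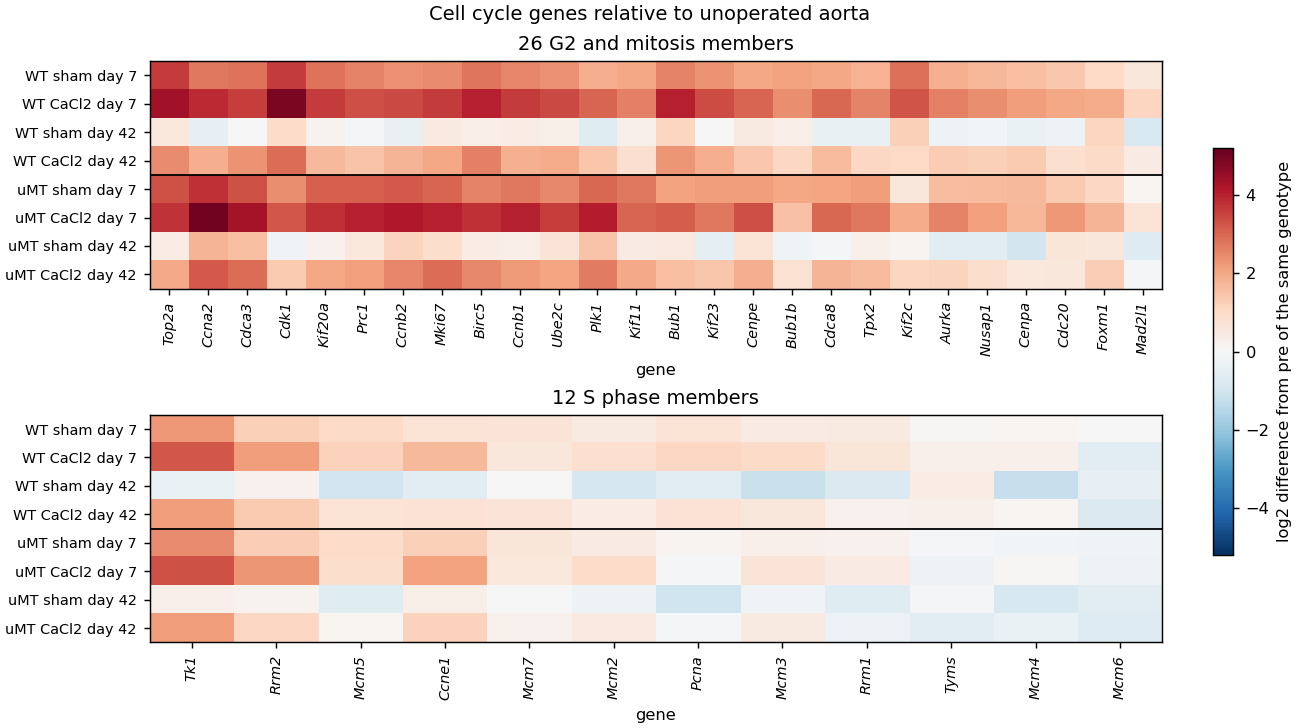
Heat map of the mean log2 difference from the pre group of the same genotype for the 38 measured members. Genes run along the horizontal axis by size of the sham day 7 rise, in separate panels for G2 and mitosis and for S phase. Rows are sham and CaCl2 at days 7 and 42 in WT and uMT. The row medians over both panels together are 1.93, 2.61, -0.12 (0.11 without the dim array) and 1.33 in WT for sham day 7, CaCl2 day 7, sham day 42 and CaCl2 day 42, and 2.04, 2.66, 0.19 and 1.32 in uMT.

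The members were lower at day 42 than at day 7 under both treatments, so whether the CaCl2 difference itself shrank was tested as an interaction. The CaCl2 difference of day 42 minus that of day 7 had a median of 0.74 over the members in WT and 0.37 in uMT, against 0.04 and -0.03 over all names. No member was called by limma in either genotype, with an unadjusted p under 0.05 for 2 and 1, and 0.043% of all names were called higher in uMT. The WT median was 0.45 without the dim array, and 0.20 and 0.13 with slide as a random block or a fixed term. The uMT median turned to -0.19 without the 6 arrays with under 50% of probes well above background. The largest WT values were those of Tk1 (1.54 ± 0.73), Cdca3 (1.53 ± 0.82) and Mcm5 (1.51 ± 0.75), each at a limma adjusted p of 0.544. In uMT they were those of Bub1b, a checkpoint kinase homologue (1.53 ± 0.58, adjusted p = 0.493), Cenpa (1.49 ± 0.79, adjusted p = 0.683) and Kif23 (1.32 ± 0.69, adjusted p = 0.675). In uMT no sham day 42 array was well above background for Bub1b or Kif23. A missed threshold does not show that the CaCl2 difference was the same at both days.

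The genotypes were compared in the same way. The sham day 7 rise in uMT minus that in WT had a median of -0.03 over the members, with 0 called by limma and an unadjusted p under 0.05 for 2. It was -1.21 for Cdk1, for which no WT pre array and 1 of 3 uMT pre arrays were well above background, and 1.11 for Plk1. Kif2c was well above background on no pre array of either genotype and on 1 uMT sham day 7 array, so its genotype difference has no measured size. The CaCl2 difference in uMT minus that in WT had a median of -0.06 at day 7 and -0.23 at day 42, with 0 called by limma and an unadjusted p under 0.05 for 0 at both days. At day 42, 0.0129% of all names were called higher and 0.0946% lower. Among members well above background on some array of each group, the values farthest from 0 at day 42 were -1.12 for Cdc20 (adjusted p = 0.774) and -1.10 for Mcm3, a helicase subunit (adjusted p = 0.776). A missed threshold here does not show that the genotypes were alike.

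Other genes of the cell cycle, 108 with 104 measured, were taken from a list by function, and their medians lay below those of the members. Of the 104, 21 were called higher at sham day 7 in WT and 14 in uMT, where 1 was lower (Rhoa), with medians of 0.62 and 0.57. Over all names, 2.29% were called higher in WT and 1.49% in uMT. Spindle proteins and mitotic kinesins had 6 of 13 called in WT and 4 of 13 in uMT, led in WT by Kif4 (at least 2.44-fold), Ckap2 (at least 4.53-fold) and Kif22 (2.64 on the log2 scale), and in uMT by Aspm (3.13), Kif22 (2.69) and Ckap2 (2.54). Iqgap3, a scaffold of cytokinesis, rose at least 3.78-fold and 2.24-fold, and the mitotic kinase Pbk by 3.95 and 3.31 on the log2 scale, with 1 of 3 pre arrays well above background in each genotype. Kif4, Ckap2 and Iqgap3 had no WT pre array well above background, so the WT pre group did not let them through the filter. Their WT calls are no separate support for the rise. Genes of origin licensing and the replication fork had 2 of 20 called in WT (Mcm10 and Pole) and 1 of 20 in uMT (Mcm10). Without the dim array, 28 of the 104 were called higher at sham day 7 in WT and 31 in uMT, where 4 were lower. The shares of all names called higher were then 3.78% and 5.44%. At day 42 under CaCl2, 21 of 104 were higher in WT and 11 in uMT, against 6.79% and 4.62% of all names. The medians were 0.61 and 0.40. Leaving out the dim array gave 18 higher and 2 lower in WT, and 9 of the 18 were among the 21 above, while 22 were higher and 2 lower in uMT. Of all names, 7.14% were then called higher in WT and 8.87% in uMT.

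Among 13 E2F and MuvB-MYB regulators, the ones called at day 7 were E2F family members and a pocket protein. E2f8, an E2F repressor that is itself switched on in S phase, rose at sham day 7 at least 2.93-fold in WT (limma adjusted p = 0.0120) and at least 1.45-fold in uMT (adjusted p = 0.0145). It was higher again under CaCl2 than sham, in WT by 1.77 on the log2 scale at day 7 (adjusted p = 0.0306) and at least 2.32-fold at day 42 (adjusted p = 0.000575), and in uMT at least 2.19-fold at day 42 (adjusted p = 0.00532). No pre or sham day 42 array was well above background for E2f8, so it passed the filter only through other groups. E2f1, an activator, rose by 0.81 in WT at day 7 under CaCl2 (adjusted p = 0.0336), while Rbl2, which represses cell cycle genes in resting cells, fell by 0.76 (adjusted p = 0.0308). In the G1 group of 8 genes, Myc rose by 1.74 (adjusted p = 0.0286) and the D-type cyclin Ccnd2 fell by 1.44 (adjusted p = 0.0255) in the same comparison. No gene of these 2 groups was called in uMT between CaCl2 and sham at day 7.

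Inhibitors of the cell cycle, a list of 11, had 0 called at sham day 7 in limma in either genotype, and differed under CaCl2. Cdkn2a, the locus of the p16 and p19ARF proteins that block the G1 kinases and stabilise p53, was well above background on no sham array in these comparisons. No sham group compared here thus let Cdkn2a through the filter, and its calls are no separate support for a rise. It rose in uMT at least 6.29-fold at day 7 (limma adjusted p = 0.0307) and at least 8.19-fold at day 42 (adjusted p = 0.000460), and in WT at least 2.40-fold at day 42 (adjusted p = 0.0126). Its neighbour Cdkn2b, the p15 inhibitor of the same kinases, rose by 1.18 in WT at day 7 (adjusted p = 0.0185) and by 1.52 in uMT at day 42 (adjusted p = 0.00295). Gadd45a, a gene induced by DNA damage, rose at day 42 by 1.53 in WT (adjusted p = 0.0243), a call lost without the dim array, and by 1.88 in uMT (adjusted p = 0.00958).

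Single arrays moved the counts of called members. The share of all names called can move too and is not given for each array left out. For uMT sham day 42 against day 7, the share called lower went from 6.21% to 21.7% without the dim array. The counts below therefore cannot be read as particular to the members. At sham day 7 the WT count of 22 was 9 without pre replicate 1, 11 without pre replicate 2 and 11 without sham replicate 1 or 3. The uMT count of 22 was 11 without pre replicate 1, 5 without pre replicate 2 and 4 without sham replicate 2. At day 42 under CaCl2, the WT count of 17 was 27 without sham replicate 1, 8 without CaCl2 replicate 1 and 2 without CaCl2 replicate 2. The uMT count of 8 was 12 without sham replicate 1, 2 and 1 without sham replicates 2 and 3, and 1 and 0 without CaCl2 replicates 1 and 2. For sham day 42 against day 7, the WT count of 13 was 1 without any 1 of the day 7 arrays, 32 without day 42 replicate 1, 2 without the dim day 42 replicate 2 and 28 without day 42 replicate 3, and the uMT count of 21 was 9 without day 7 replicate 2 and 11 and 10 without day 42 replicates 2 and 3. For CaCl2 day 42 against day 7, the WT count of 1 was 0 without replicate 1 or 3 of either day and 5 without day 42 replicate 2, and the uMT count of 1 was 0 without day 7 replicate 1 or any 1 of the day 42 arrays, and 10 without the dim WT array. The members' median in WT at sham day 7 stayed between 0.94 and 2.02 over all settings tried, and in uMT between 0.87 and 2.21.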

How the data were processed

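Each of the 30 samples was hybridised as Cy3-labelled cRNA to 1 one-colour Agilent SurePrint G3 8x60K array. The deposited scanner files hold spot intensity, background-corrected by Agilent Feature Extraction 10.7.1.1 per the file headers, while the submitters' processing notes name version 9.5.1.1. The authors' processed table, also deposited, holds linear intensity values with 1 shared distribution over all columns (median 24.2). Each of its 30 columns was most like its own array (lowest r = 0.979). How it was normalized is not given in the sources used here, and it served as an alternative. RNA was isolated with TRIzol and a column kit, for which the series text and the labels name different makers. Probe positions are mm9 per the file headers.

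Control and outlier spots were left out (55657 of 55681 probes kept), repeat spots averaged, log2 of the processed signal was taken after dividing by the array's 75th percentile, and 33228 probes were kept that were well above background on 3 of 3 arrays in some group (23268 names, brightest probe per name). The 15 differences came from 1 fit of the 10 groups in limma 3.58.1 (R 4.3.3, 20 residual degrees of freedom), with Benjamini-Hochberg adjustment over all names and calls at 0.05. Tables were made with Python 3.11.15 and pandas 2.3.3, and the fit was tested on simulated data. Where no array of the lower group was well above background, the fold is a lower bound against the higher of that signal and the lowest signal well above background. Members and gene lists were chosen with earlier results of these data known. The genes named were 16 members set by role, in each comparison the 4 called members of largest change (3 where none was called), and up to 3 called genes from each other list. Replicate numbers did not pair the samples (correlations of same-numbered deviations from -0.378 to 0.290). The closing section gives the effect of other normalizations, filters, probe rules, fits and left-out arrays. The number of arrays limits the precision.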

Additional observations from a re-analysis of the deposited data

How the results depend on the processing

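Counts of called members (higher and lower together) are given here under other settings. The cause of each change was not tested unless named. The share of all names called under each setting is not given, so a changed count cannot be read as particular to the members. Results differ by less than 1.5 times where no value is given. In WT at sham day 7 (22), quantile normalization gave 10, normexp with quantile normalization 13 and the authors' values 10, and leaving out 1 array gave 9 to 26. In uMT at sham day 7 (22), leaving out 1 array gave 4 to 28. In WT, CaCl2 against sham at day 7 (0) became 1 with normexp, 1 with the mean of probes, 24 in a fit of these groups only, 6 when slide was a random block and the dim array was dropped, 4 without the 6 arrays with under 50% of probes well above background, and 0 to 3 on leaving out 1 array. In uMT (0) it became 4 and 1 under the last pair of array choices. In WT, CaCl2 against sham at day 42 (17) became 10 with no filter, 11 and 9 when slide was a random block or a fixed term, 0 in a fit of these groups only, and 2 to 27 on leaving out 1 array. In uMT (8) it became 4 with quantile normalization, 5 with normexp, with the authors' values and with no filter, 1 in a fit of these groups only, 0 when slide was a random block, 24 with that block without the dim array, 0 without the 6 dim arrays, and 0 to 14 on leaving out 1 array.

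For CaCl2 day 42 against day 7 in WT (1), the count was 0 with quantile normalization, the authors' values, the mean of probes or these groups only, 5 with normexp, 2 when slide was a random block, and 0 to 5 on leaving out 1 array. In uMT (1) it was 0 with quantile normalization, the mean of probes, these groups only or without the 6 dim arrays, 7 with normexp, 9 when slide was a random block or a fixed term, 10 with the random block and no dim array, and 0 to 10 on leaving out 1 array. For sham day 42 against day 7 in WT (13), it was 6 with the percentile over probes detected on all arrays, 8 with the mean of probes, 0 with these groups only or when slide was a random block or fixed term, 6 with the random block and no dim array, 3 without the 6 dim arrays, and 1 to 32 on leaving out 1 array. In uMT (21) it was 2 without the 6 dim arrays and 9 to 30 on leaving out 1 array. With the replicate number as a block, that WT count was 7, and no other count moved by over 1.5 times; the numbers do not pair the samples. The tests of change over time and between genotypes called 0 members in every fit that could be made; with slide as a fixed term, the uMT comparisons of CaCl2 with sham, and those of their size between genotypes, could not be fitted. The median member difference kept its sign in all 10 pairwise comparisons under every setting, while the median of the uMT change over time ran from -0.19 to 0.86, and those of the genotype comparisons also took both signs.

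Foxm1 reversed in WT at day 42 under CaCl2: its difference of -0.13 (limma adjusted p = 0.896) became 1.0 (0.0405) without the second WT sham array of day 42, 1.01 (0.0335) when that array was left out and slide was a random block, and 1.0, also called, without the 6 dim arrays. It ran from -0.75 to 1.0 on leaving out 1 array, and was 0.60 and 0.88, not called, when slide was a random block or a fixed term with all arrays. On that array only 36.6% of probes were well above background, which limits every WT value of sham day 42. The within-slide correlation of residuals was 0.782 with it and -0.0687 without it.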
